A study of Mus musculus with 41 samples.

Results

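MLL3/4 sites that stayed in place during SOX9 reprogramming without a SOX9 peak were examined. They were selected on the peak calls themselves, as MLL3/4 peaks called at D0 that were overlapped by at least 1 bp by a peak at both W1 and W2, and by no peak in the SOX9 lists of D0, W1, W2, W6 or W12. Of 37072 D0 MLL3/4 peaks, 3090 met the rule (8.34%), out of 15092 that were kept at both times (40.7%). These 3090 are called kept unbound sites here. For comparison, 12002 kept sites had a SOX9 peak at 1 or more times (kept SOX9-bound sites), and 12283 peaks without SOX9 had an MLL3/4 peak neither at W1 nor at W2 (lost unbound sites).

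The data were CUT&RUN (CNR) peak lists, in which a nuclease tethered by an antibody cuts the DNA around a chromatin protein. Epidermal stem cells were sorted as CD31, CD45, CD117 and CD140a negative, CD49f high, CD34 negative and Ly6A high from the back skin of male CD1 mice of genotype K14rtTA; TRE-myc-Sox9. In these mice the Krt14 promoter drives the doxycycline (DOX)-dependent activator in the skin epithelium, so that DOX switches on a MYC-tagged SOX9 there. D0 cells came from mice at postnatal day 21 before DOX, W1 cells from day 28, W2 from day 35 and W6 from day 63, and W12 cells came from transgenic skin grafted onto immunocompromised hosts. Cultured keratinocytes from back skin of male CD1 mice carried K14rtTA with TRE-myc-Sox9 (WT-SOX9, with and without DOX at 1 µg/ml), TRE-myc-Sox9noTA (without the transactivation domain, with DOX) or TRE-myc-Sox9noHMG (without the DNA-binding HMG domain, with DOX). Every group had 2 samples, but the authors pooled them into 1 list, so no test between times or conditions was possible. MLL3/4 peaks at D0 lay within 1 kb of a start in 4 of 5 epidermal marker genes (Itga6, Krt5, Krt14 and Trp63, but not Ly6a) and in 1 of 9 genes removed by the sort or of other lineages, the melanocyte gene Dct. In a wider list of 10 genes of other cell types 2 had one, Dct and the myelin gene Mbp.

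MLL3 and MLL4 (KMT2C and KMT2D) are methyltransferases that place a single methyl group on lysine 4 of histone H3 at enhancers and act with transcription factors that recruit them. SOX9 is an HMG-box factor of hair follicle stem cells that is silent in adult interfollicular epidermis. In epidermis, enhancers are commonly occupied by p63, AP1 (FOS and JUN), grainyhead-like (GRHL), TEAD, KLF and POU factors.

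Sequence within 50 bp of the signal maximum of 10 strong kept unbound sites away from promoters is shown first, as examples of the short factor words that were counted around the signal maxima. The words were picked for display with their values known, so nothing is read from the choice. They are the sites outside repeats and outside 1 dense run on chromosome 11 with the smallest sum of signal ranks over D0, W1 and W2 that hold the GRHL word AACCNGTT (the first 4), the TEAD word ACATTCC (the next 2), the POU octamer ATGCAAAT (the next 2) and the AP1 word TGACTCA (the last 2), on either strand. Capitals mark the words, each window is the forward strand of mm10 (GRCm38), and each is named by its nearest protein-coding gene.
Tmem139, chr6:42257638-42257738: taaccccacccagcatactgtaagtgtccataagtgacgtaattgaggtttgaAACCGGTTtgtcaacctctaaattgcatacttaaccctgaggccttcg
Serpinb7, chr1:107415909-107416009: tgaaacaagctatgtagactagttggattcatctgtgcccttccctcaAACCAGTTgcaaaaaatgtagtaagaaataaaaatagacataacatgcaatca
Arl4c, chr1:88592032-88592132: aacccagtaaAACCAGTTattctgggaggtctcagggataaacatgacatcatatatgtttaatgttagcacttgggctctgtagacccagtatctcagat
Flrt2, chr12:95707294-95707394: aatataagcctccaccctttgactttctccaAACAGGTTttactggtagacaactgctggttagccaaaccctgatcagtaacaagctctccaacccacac
Slco3a1, chr7:74593226-74593326: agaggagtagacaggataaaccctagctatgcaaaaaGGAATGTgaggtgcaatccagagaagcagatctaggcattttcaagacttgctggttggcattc
Zfp704, chr3:9519784-9519884: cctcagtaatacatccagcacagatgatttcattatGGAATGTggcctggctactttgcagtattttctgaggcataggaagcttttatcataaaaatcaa
Sh3rf1, chr8:61228057-61228157: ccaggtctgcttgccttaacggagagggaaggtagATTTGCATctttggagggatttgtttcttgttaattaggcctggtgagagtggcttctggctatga
Cers3, chr7:66790407-66790507: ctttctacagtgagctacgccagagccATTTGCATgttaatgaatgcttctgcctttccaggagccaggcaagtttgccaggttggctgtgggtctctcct
Ppargc1a, chr5:51432269-51432369: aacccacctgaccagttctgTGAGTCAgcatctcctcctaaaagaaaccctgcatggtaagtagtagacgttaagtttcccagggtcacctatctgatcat
Tcf7l1, chr6:72795076-72795176: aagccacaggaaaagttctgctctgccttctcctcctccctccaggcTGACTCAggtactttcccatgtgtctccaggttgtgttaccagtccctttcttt

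The Tmem139 site lay 4018 bp from that gene and was overlapped in all 4 pooled cultured MLL3/4 lists. The Serpinb7 window was intronic in a gene for an epidermal serine protease inhibitor and was in no cultured list. Cers3 encodes the ceramide synthase that makes the very long ceramides of the skin barrier, and its intronic window was also in no cultured list. Tcf7l1, a transcription factor of hair follicle stem cells, had its site 5645 bp from the gene, and that site was in all 4 cultured lists. Of these 10 sites, the Slco3a1 site was the nearest to a SOX9 peak, at 1083 bp.

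The rule asks only for the presence of a peak, and the signal of the kept unbound sites in the lists it used is described here. Their median maximum signal, the coverage at the highest base of a peak, was 9 at D0, 7 at W1 and 7 at W2, and the lowest maximum in each of these lists was 5. For kept SOX9-bound sites the medians were 11, 9 and 9. These values are whole numbers in the files, although the study's methods describe coverage as RPKM, so whether the lists share a scale is unknown and ranks within each list, which held 37072, 31539 and 29281 peaks, are given: the median kept unbound site stood at percentile 65.5 of total signal at D0, 53.4 at W1 and 48.6 at W2, whereas the median kept SOX9-bound site stood at 76.8, 76.7 and 75.1. A total of 1777 of 3090 kept unbound sites (57.5%) had a lower percentile at both W1 and W2 than at D0, against 47% of all kept sites. A maximum of only 5 or 6 at both W1 and W2 was recorded for 767 of them (24.8%), compared with 12.8% of all kept sites and 9.72% of kept SOX9-bound sites. The signal lists are those that the rule used, so these values are a description without a test.

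How often D0 peaks were kept unbound depended on D0 signal. D0 peaks were split into 10 bins of equal number by total signal. In the lowest bin 3.08% were kept unbound, and the share was 12.9% in bin 9 and 11.4% in the highest. Kept SOX9-bound sites rose more steeply, from 7.98% to 81.4%, and lost unbound sites fell from 68.7% to 1.91%. Of the sites kept at both times, the part without SOX9 was 27.8% in the lowest bin and 12.3% in the highest.

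**Figure D1:**
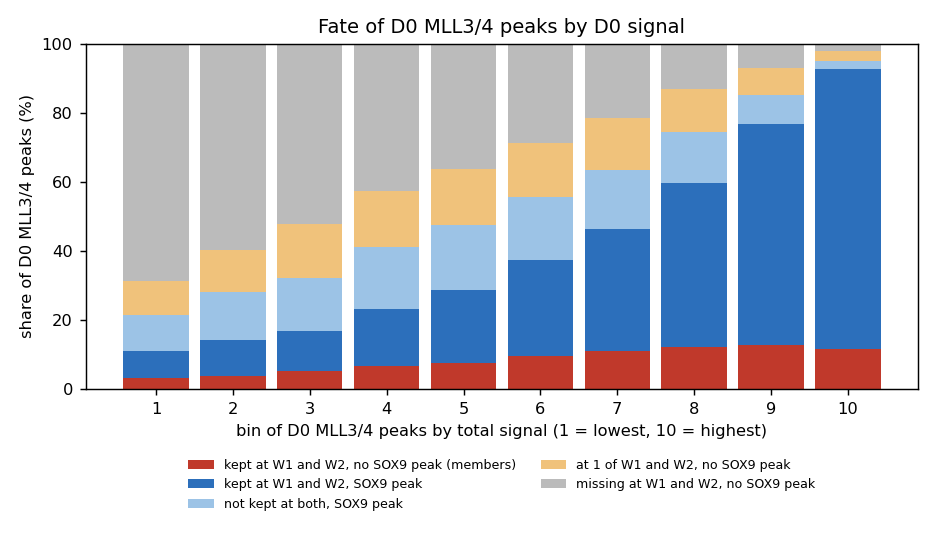
Share of D0 MLL3/4 peaks (y axis, %) by what happened to them, in 10 bins of total D0 signal (x axis, 1 the lowest). The red bars, kept at W1 and W2 without a SOX9 peak, run from 3.08% to 12.9%, while the dark blue bars, kept with a SOX9 peak, reach 81.4% in the highest bin.

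The sites named here were taken by rank sum outside that dense run and outside repeats, a choice made after the values were seen. The site 2535 bp from Lrig2 (chr3:104514453-104514943), which encodes a transmembrane leucine-rich repeat protein, had maxima of 74 at D0, 19 at W1 and 19 at W2 (these and the maxima below are printed side by side, in the order D0, W1, W2, and are not scaled to each other). The intronic Serpinb7 site (chr1:107415503-107416233) had maxima of 30, 11 and 10. A site 12566 bp from Cyp2b19 (chr7:26743827-26744576), a cytochrome P450 of differentiating keratinocytes, had maxima of 24, 21 and 19, and it was in no cultured list. By total signal, the Lrig2 site ranked 85 at D0, 1819 at W1 and 3135 at W2, and the Cyp2b19 site ranked 1263, 1429 and 2384.

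A site 5615 bp from Ahr (chr12:35540653-35540934), the aryl hydrocarbon receptor, had maxima of 32, 18 and 16, and 6 of the 28 D0 peaks nearest to that gene were kept unbound (21.4%, all D0 peaks 8.34%). The strongest of the added sites by rank sum, 3614 bp from Zbtb33 (chrX:38185607-38186179), which encodes the methyl-DNA-binding protein Kaiso, had maxima of 39, 21 and 26 and was in all 4 cultured lists. The site 7484 bp from the phosphatase gene Dusp22 (chr13:30652078-30652515) had maxima of 22, 22 and 18, and ranked 1887, 1100 and 1495. The other sites of this group were at Tmem139 (30, 19 and 19), Pdzrn4 (47, 16 and 18), Ccdc113 (32, 21 and 13) and Rasgef1b (33, 16 and 18).

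Of sites over 10 kb from any annotated start, the 8 with the smallest rank sums were at Pdzrn4, Arhgap32, Slco3a1, Pam, Arl4c, Ptprk, Ccl20 and Zfp704. The site 18552 bp from Ccl20 (chr1:83137719-83138577), the chemokine that binds CCR6, had maxima of 30, 18 and 15, and it was the only one of the 8 in all 4 cultured lists. The site 95101 bp from the receptor phosphatase gene Ptprk (chr10:27979097-27979719) had maxima of 32, 11 and 13. Maxima at D0 of the 8 sites ran from 19 (Arhgap32) to 47 (Pdzrn4).

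The strongest sites that were in no cultured list were at Irx2, Camk1d, Pdzrn4, Cers3 and 1110051M20Rik. The site 102824 bp from Irx2 (chr13:72737022-72737689), an Iroquois homeobox factor, had maxima of 61 at D0, 7 at W1 and 13 at W2. The promoter site of the calcium/calmodulin-dependent kinase gene Camk1d (chr2:5675886-5676637) had maxima of 70, 19 and 23. The Cers3 site (chr7:66789946-66790950) had maxima of 53, 14 and 14. These sites were chosen by their D0 total, so nothing is read from the order of their values over time.

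**Figure D2:**
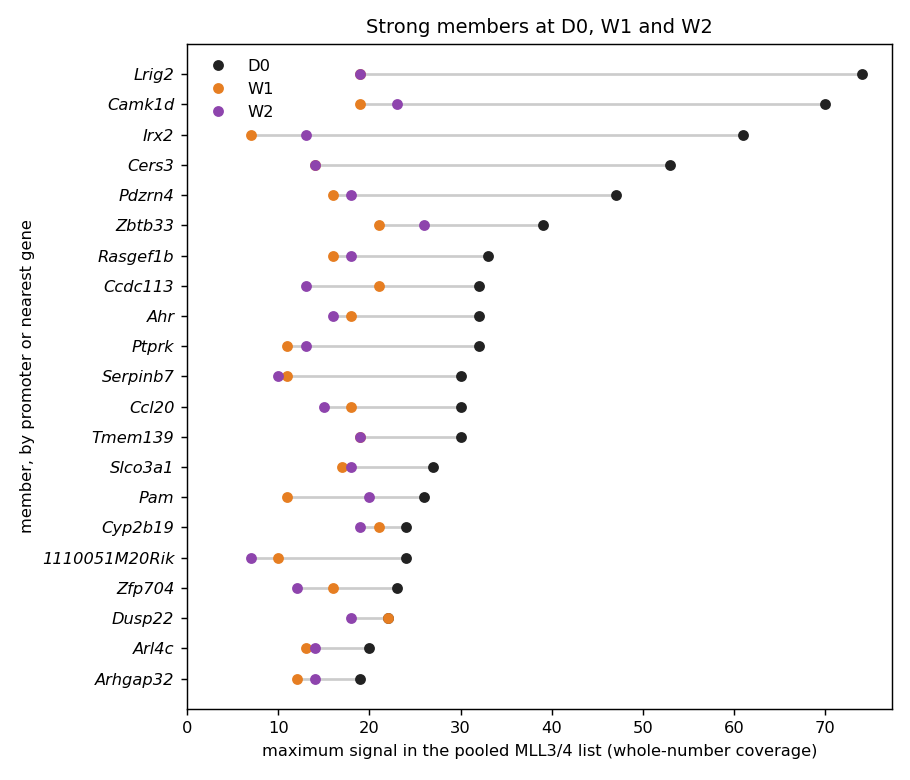
Maximum MLL3/4 signal in whole-number coverage, with lists not scaled to each other (x axis), of strong kept unbound sites (y axis, by promoter or nearest gene) in the pooled lists of D0 (black), W1 (orange) and W2 (purple). Lrig2 has the highest D0 value at 74.

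The 10 kept unbound sites with the smallest rank sums overall all lay in 1 run at Sfi1 on chromosome 11, and so did the 5 of highest D0 total among sites in all 4 cultured lists. This run, from 3130724 to 3200048, held 32 of the 3090 sites and 45 D0 peaks, while no other 100-kb bin held more than 7 kept unbound sites. Many of its peaks were broad. The widest, 3666 bp at chr11:3165106-3168771, had a total signal of 30077 at D0, 49942 at W1 and 28316 at W2, with maxima of 24, 27 and 18. The run also held 26 of the 60 kept unbound sites on MYC-tag peaks without DOX and 22 of the 52 on WT-SOX9 MYC-tag peaks with DOX. The part of read mapping in this run was not tested, and the median share of repeat-masked bases around its maxima was 20.9%. For the pooled MYC-tag lists, the main shares of kept unbound sites are given with and without this run.

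Kept unbound sites were mostly distal, as were D0 peaks in general. A promoter, taken as 1 kb to each side of any annotated transcript start, was reached by 671 of 3090 (21.7%, 95% Wilson interval 20.3 to 23.2), below the 28% of all D0 peaks. For kept SOX9-bound sites the share was 25.7%, and the difference of kept unbound minus kept SOX9-bound sites was -4.01 percentage points (95% interval -5.64 to -2.34). With the upper 50% of each list this difference was -2.09 points and with SOX9 peaks over 3600 RPKM only -0.70 points, with intervals that included 0. Within bins of D0 signal, used below, the promoter share was lower than that of kept SOX9-bound sites in 6 of 10 bins and higher in 4. Lost unbound sites were at 25.1%. Against them the share was higher in 6 bins and lower in 4, with a mean over bins of 22.6% in both classes. Differences below are also kept unbound sites minus the class compared. Outside promoters, 1232 sites were intronic (39.9%, all D0 peaks 37.2%), 1102 intergenic (35.7%, all D0 peaks 32.3%) and 85 exonic (2.75%, all D0 peaks 2.51%). The median distance to an annotated start was 6760 bp, and 1238 sites (40.1%, all D0 peaks 37.9%) were over 10 kb away. At least 50% of the window was repeat-masked at 128 sites (4.14%, all D0 peaks 3.21%). All intervals on shares here cover counting error only.

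CpG island-like sequence was scarce in them. A window of 100 bp to each side of the maximum, with at least 50% G and C and an observed-to-expected CpG ratio over 0.6, was found at 171 sites (5.53%), against 12.2% of all D0 peaks. Kept SOX9-bound sites had it in 9.57% and lost unbound sites in 10.6%. At promoters 20.7% of kept unbound and 33.9% of kept SOX9-bound sites were CpG island-like, both under the 39.7% of all D0 promoter peaks. Away from promoters the shares were 1.32% and 1.16%, with 1.55% of all distal D0 peaks. The share of kept unbound sites was 1.83% in the upper 50% of each MLL3/4 list and 8.34% with SOX9 peaks over 3600 RPKM only, where the difference from kept SOX9-bound sites shrank from -4.04 to -1.12 points (interval -2.09 to -0.185).

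Housekeeping promoters with kept unbound sites were few, as were those of all genes. Of 21728 protein-coding genes, 540 had such a site within 1 kb of a start (2.49%), compared with 11.4% that had a kept SOX9-bound site there and 33.5% that had any D0 MLL3/4 peak. Among 76 cytosolic ribosomal protein genes, 54 had a D0 peak at a start, 13 a kept SOX9-bound one and 2 a kept unbound one (2.63%, Rplp0 and Rps14). Rplp0, a protein of the ribosomal stalk, had maxima of 6, 9 and 5. The mitochondrial ribosomal protein genes likewise had 2 of 78 (2.56%, Mrps18b and Mrpl17), proteasome genes 1 of 39 (2.56%, Psmd12), translation initiation factor genes 2 of 42 (4.76%, Eif2s1 and Eif4g1), Mediator genes 1 of 28 (3.57%, Med17) and zinc finger genes 11 of 365 (3.01%). No promoter of the 44 complex I, 32 splicing factor, 12 origin licensing, 10 AP1 or 27 MLL and SWI/SNF genes listed held one. Each of these lists had few such genes, and nothing is read from its share against the 2.49% of all genes.

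The highest D0 maximum among the named housekeeping promoters was at Mrps18b, a mitochondrial ribosomal protein gene, with 36, 14 and 14 and a SOX9 peak 76 bp away. Zfp692 had 13, 5 and 6, Zfp516 had 13, 10 and 6, and Zfp791 had 10, 5 and 5. At the Eif4g1 promoter, which serves a scaffold of the cap-binding complex, the maxima were 14, 6 and 11.

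Genes of epidermal fate had kept unbound sites around them, at about the rate of other D0 peaks. Of 30 such genes, 15 were the nearest protein-coding gene to at least 1 kept unbound site (50.0%, all protein-coding genes 9.97%), but these genes also had many D0 peaks, and 40 of their 467 D0 peaks were kept unbound (8.57%, all D0 peaks 8.34%). For the 27 hair follicle and hedgehog genes the count was 18 of 225 D0 peaks (8.0%). At promoters, Trp63 and Klf5 were the epidermal fate genes with a kept unbound site. The Trp63 one (chr16:25800949-25801144), at the master factor of stratified epithelia, had maxima of 6, 5 and 5. The Klf5 one (chr14:99297616-99298115) had 12, 6 and 7, and the nearest SOX9 peak was 25 bp away. Both values at W1 and W2 were near the lowest value listed.

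Of the 80 D0 peaks whose nearest protein-coding gene was Gata3, a factor of epidermal and hair lineages, 7 were kept unbound (8.75%, all D0 peaks 8.34%), 37 were kept with SOX9 and 18 were lost unbound. The 7 sites lay 17215 to 929785 bp from the gene. They had D0 maxima from 7 to 11, and the nearest to the gene, 17215 bp away (chr2:9839443-9839863), had maxima of 10, 10 and 5 and was in all 4 cultured lists. At Grhl3, which encodes a grainyhead-like factor needed for the skin barrier, 2 neighbouring intronic sites (chr4:135563537-135564493 and chr4:135565065-135566040) had maxima of 23, 8 and 6 and of 25, 6 and 7. Neither was in a cultured list. The strongest of 3 sites near Klf5 (chr14:99520219-99520816, 205183 bp away) had 32, 8 and 7. The Sox9 gene itself was nearest to 4 kept unbound sites of 33 D0 peaks (all D0 peaks 8.34%), the closest of them 95903 bp away (chr11:112686017-112686321) with maxima of 6, 7 and 7.

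Genes nearest to the most kept unbound sites, a ranking added after the values were seen, were Sfi1 with 29, Zfp608 with 10 of its 42 D0 peaks (23.8%, all D0 peaks 8.34%), and Gata3 and Tmem267 with 7 each. A total of 17 genes had at least 6, among them Ablim1, Ahr, Arhgef28, Arid1b, Casz1, Epha4, Foxn3, Gnai1, Nhsl1, Pard3 and Trp63. Casz1, a zinc finger transcription factor, had 6 of 20 (30.0%). These genes were picked for their number of kept unbound sites, so nothing is read from their shares. A total of 2167 genes were nearest to at least 1 site and 570 to at least 2, so the sites were widely spread.

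On the X chromosome a larger share of D0 peaks was kept unbound. Of 538 D0 peaks on the X chromosome 74 were kept unbound (13.8%), compared with 3016 of 36534 on autosomes (8.26%), a difference of 5.50 points (95% interval 2.83 to 8.68). Of sites kept at both times, 43.3% of 171 on the X chromosome had no SOX9 peak, against 20.2% on autosomes. Those 171 were of 538 D0 peaks, and 14921 of 36534 were kept at both times on autosomes. These values come from the calls that the rule used, so they are a description. The mice were male, and the part of X chromosome copy number in the calls was not tested.

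SOX9 peaks were often close by although none overlapped. The median distance from a kept unbound site to the nearest SOX9 peak of any time was 6932 bp, and it was 12105 bp for lost unbound sites. Within 1 kb, 572 sites (18.5%, interval 17.2 to 19.9) had a SOX9 peak, against 14.6% of all D0 peaks without SOX9. Within 10 kb the count was 1788 (57.9%), against 49.9%. These distances rest on the SOX9 lists that the rule used, so they are a description without a test. They are not split by D0 signal, which was lower in lost unbound sites (median total 773, against 1562.5 in kept unbound sites). Just inside the rule were sites at Nfyb, Stim1 and Gm5148, whose edges were 2, 4 and 13 bp from a SOX9 peak. Just outside were kept sites at Ccl6, Slc45a1 and Bhlhe40, which SOX9 peaks overlapped by 1, 3 and 5 bp.

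The SOX9 lists hold only peaks with a maximum over 1800 RPKM (coverage scaled to the depth of the library), so an unbound site is a site without a peak above that level. The highest SOX9 maximum at 704 of the 12002 kept SOX9-bound sites (5.87%) was at most 2000 RPKM, and at 6472 (53.9%) it was at most 3600 RPKM. Counting only SOX9 peaks over 3600 RPKM, 9562 sites would have been kept unbound.

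**Figure D3:**
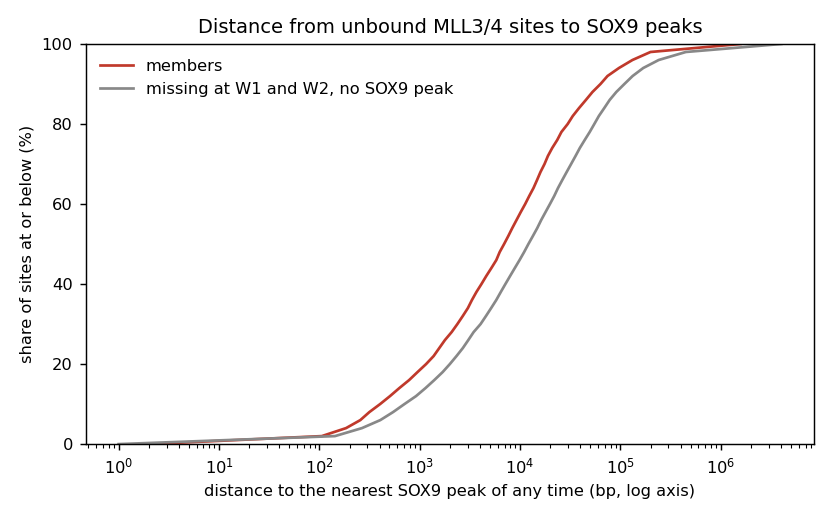
Share of sites (y axis, %) whose nearest SOX9 peak of any time lies at or below a distance in bp (x axis, log scale), for kept unbound sites (red, members) and lost unbound sites (grey). The red curve lies to the left over most of its range, with medians of 6932 and 12105 bp.

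In cultured keratinocytes, whose lists took no part in the rule, kept unbound sites stood between the other classes. Without DOX, 1308 of 3090 (42.3%, interval 40.6 to 44.1) overlapped an MLL3/4 peak, against 40.4% of all D0 peaks. Kept SOX9-bound sites were at 63.6% (difference -21.3 points, interval -23.2 to -19.3), and lost unbound sites at 17.1%. The order held within every bin of D0 signal, with kept unbound sites under kept SOX9-bound sites in 10 of 10 bins and over lost unbound sites in 10 of 10. Kept sites were selected for MLL3/4 calls at W1 and W2 and lost sites for their absence, and the bins match D0 signal only. The order is therefore not independent of that selection. At positions 10 kb to either side of the kept unbound sites the overlap was 4.47%.

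With WT-SOX9 induced, in a list whose source samples are titled replicates 1 and 2 but are both described as replicate 2, 340 sites were in the MLL3/4 list (11%, all D0 peaks 11.7%), and 27% of kept SOX9-bound sites were. Among sites in the upper 50% of each MLL3/4 list the share of kept unbound sites was 19.3%, a difference of -14.6 points from kept SOX9-bound sites (interval -17.3 to -11.6). With the noTA form the share of kept unbound sites was 26.7% (all D0 peaks 27.7%), and with the noHMG form it was 32.1% (all D0 peaks 30.6%). The lists differed in length, from 10543 peaks with WT-SOX9 to 33975 without DOX. Cut to 10543 peaks each, they held 19.3% of kept unbound sites without DOX, 11% with WT-SOX9, 13.6% with noTA and 18.4% with noHMG, near the 18.4%, 11.7%, 14.6% and 17.6% of all D0 peaks. In kept SOX9-bound sites the same cut gave 37.1%, 27%, 29.1% and 33.9%.

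Of the 1308 kept unbound sites with MLL3/4 in culture without DOX, 326 (24.9%, interval 22.7 to 27.3) were also in the WT-SOX9 list, compared with 26.8% of such D0 peaks in all and 39.5% of such kept SOX9-bound sites. For noTA the shares were 57.3%, 62.7% and 72.1%, and for noHMG 69.3%, 69.4% and 76.8%. Altogether 285 kept unbound sites (9.22%, all D0 peaks 9.17%) were in all 4 cultured lists and 1634 (52.9%, all D0 peaks 54.7%) were in none. The lists are 1 pooled list per condition, and differences between conditions could not be set against replicate spread.

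Few kept unbound sites were overlapped by peaks of the antibody against the MYC tag of the introduced SOX9. With WT-SOX9 and DOX, 52 of 3090 were overlapped (1.68%, interval 1.29 to 2.2, all D0 peaks 3.61%), and without DOX 60 were (1.94%, all D0 peaks 3.44%). Of these sites 25 were in both lists, 27 only in the list with DOX and 35 only in the list without DOX. Leaving out the run at Sfi1, the shares were 0.981% and 1.11%. With DOX, the share was 4.11% (interval 2.99 to 5.64) with the upper 50% of each MLL3/4 list, a difference of -5.98 points from kept SOX9-bound sites. It was 2.54% with SOX9 peaks over 3600 RPKM only. Kept SOX9-bound sites were at 8.75% with DOX and 7.09% without. The noTA list overlapped 169 kept unbound sites (5.47%, all D0 peaks 9.86%) and 21.1% of kept SOX9-bound sites, and the noHMG list 93 (3.01%, all D0 peaks 4.28%). Without the run, which held 10 and 28 of these sites, the shares were 5.20% and 2.13%. A total of 173 kept unbound sites were overlapped with DOX in the WT-SOX9 or noTA list and not in the WT-SOX9 list without DOX. The matching shares over all D0 peaks are not given for this count or for the split into 25, 27 and 35 sites. Nothing is read from either. Whether these overlaps are of introduced SOX9 was not tested. The list of replicate 1 alone without DOX, which was not cut at 1800 RPKM, overlapped 134 (4.34%, all D0 peaks 7.28%), and the MLL3/4 list of replicate 1 without DOX overlapped 1381 (44.7%, all D0 peaks 42.9%).

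**Figure D4:**
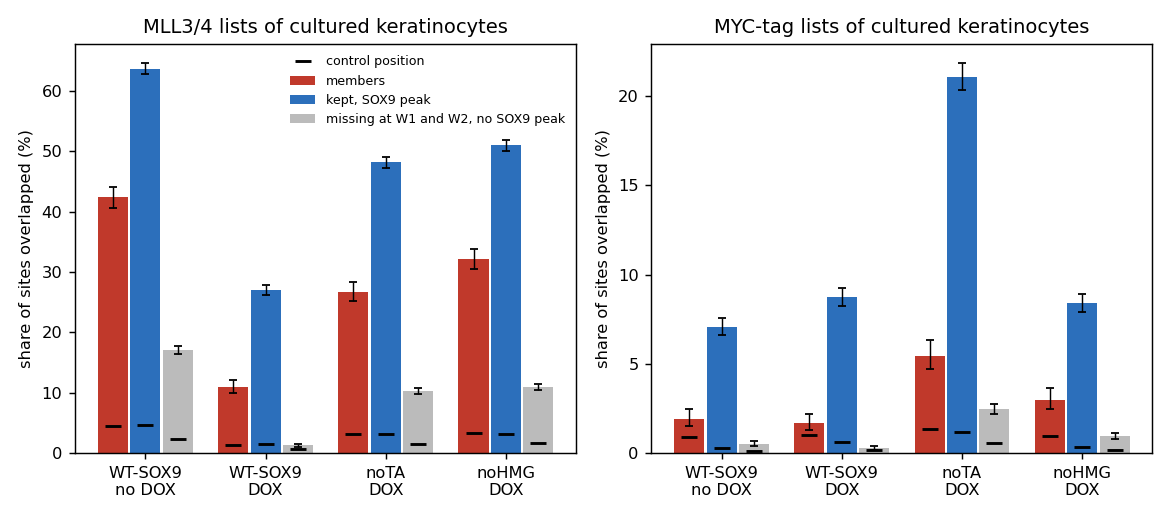
Share of sites (y axis, %) overlapped by MLL3/4 peaks (left) and MYC-tag peaks (right) of cultured keratinocytes, by condition (x axis), with 95% Wilson intervals and black marks for positions 10 kb to either side. Kept unbound sites (red, members) lie between kept SOX9-bound (blue) and lost unbound sites (grey) in all 8 lists, for example 42.3%, 63.6% and 17.1% for MLL3/4 without DOX.

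Sequence words were searched within 50 bp of the signal maximum on both strands, with windows 1 kb to either side as control. The AP1 word TGACTCA was present at 233 kept unbound sites (7.54%, interval 6.66 to 8.53), under the 12.9% of all D0 peaks and under the 17.3% of kept SOX9-bound sites (difference -9.73 points, interval -10.8 to -8.54). Lost unbound sites were at 9.26%, and the control windows of kept unbound sites at 1.6%. The share was below that of kept SOX9-bound sites in 10 of 10 bins of D0 signal, and also at promoters (5.96% and 10.7%, all D0 promoter peaks 7.32%) and away from them (7.98% and 19.5%, all distal D0 peaks 15%). At promoters the difference from lost unbound sites (5.35%) had an interval that included 0 (-1.15 to 2.80). With only SOX9 peaks over 3600 RPKM counted as binding, the share of kept unbound sites was 12.4% (interval 11.8 to 13.1), which includes the 12.9% of all D0 peaks, so the difference from all D0 peaks was lost, while that from kept SOX9-bound sites was -7.85 points.

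SOX words (CCATTGT or the word CCTTTGT or the word GCATTGT or the word GCTTTGT) were found at 145 kept unbound sites (4.69%, all D0 peaks 5.31%), under their own control of 6.04%. Lost unbound sites (4.24%, control 6.01%) and all D0 peaks (control 6.17%) were under their controls too, so this is not particular to kept unbound sites. Kept SOX9-bound sites had a SOX word in 6.98%, beside a control of 6.50% (difference -2.29 points, interval -3.13 to -1.37). At promoters the shares were 3.28% of kept unbound and 5.89% of kept SOX9-bound sites (all D0 promoter peaks 4.39%). The CCAAT words of NF-Y (ACCAATC or the word ACCAATG or the word GCCAATC or the word GCCAATG) were at 3.66% (all D0 peaks 6.86%), near their control of 3.28%, and at 8.18% of kept SOX9-bound sites. At promoters the NF-Y shares were 6.71% of kept unbound and 16.8% of kept SOX9-bound sites (all D0 promoter peaks 12.7%).

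TEAD words, taken from the words searched with their values known, were more frequent in the kept unbound sites than in kept SOX9-bound ones. ACATTCC was at 164 of them (5.31%, interval 4.57 to 6.15, all D0 peaks 3.12%), 1.86 points over kept SOX9-bound sites (3.45%, interval of the difference 1.05 to 2.76), with a control of 1.44%. The share was higher than in kept SOX9-bound sites in 9 of 10 bins of D0 signal and higher than in lost unbound sites (2.80%) in 10 of 10. GATA words (AGATAAC or AGATAAG) were at 4.17% (all D0 peaks 3.62%), 0.984 points over kept SOX9-bound sites (interval 0.255 to 1.80), and at 4.40% of lost unbound sites, a difference of -0.222 points with an interval that included 0 (-0.973 to 0.618). RUNX words (AACCACA) were at 2.49% (all D0 peaks 2.09%) and KLF words (CCCCACCC or CCACACCC) at 5.02% (all D0 peaks 5.27%), with intervals of the difference from kept SOX9-bound sites that included 0. The CTCF pattern, for the factor that marks domain borders, was at 9 kept unbound sites (0.291%, all D0 peaks 0.693%), and at 1.40% of lost unbound sites.

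The remaining words searched were as follows. The AP-2 word GCCNNNGGC was at 3.40% (all D0 peaks 4.18%), the GC box GGGGCGGG at 1.39% (all D0 peaks 2.89%), the E-box CACGTG at 2.04% (all D0 peaks 2.27%) and the ETS word CCGGAAG at 1.07% (all D0 peaks 1.66%) of kept unbound sites. The CREB word TGACGTCA was at 12 sites (0.388%, all D0 peaks 0.526%), the YY1 word ATGGCGG at 9 (0.291%, all D0 peaks 0.477%), the p63 pattern at 4 (0.129%, all D0 peaks 0.0809%), the NRF1 word GCGCATGCG at 2 (0.0647%, all D0 peaks 0.205%) and the ZNF143 word ACTACAATT at 1 (0.0324%, all D0 peaks 0.121%). The GC box share was below the 2.37% of kept SOX9-bound sites (difference -0.983 points, interval -1.44 to -0.440), and the intervals for the AP-2, ETS, E-box, CREB and YY1 words included 0.

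The GRHL and POU words were added after their frequencies in these windows had been seen, so they are described without a test. AACCNGTT was at 164 kept unbound sites (5.31%, all D0 peaks 2.64%), compared with 0.550% of their control windows, a ratio of 9.65. In kept SOX9-bound sites it was at 2.53%, a ratio of 3.44 to their own control, and in lost unbound sites at 2.64%. At promoters it was at 28 kept unbound sites (4.17%, all D0 promoter peaks 1.81%). Away from promoters it was at 136 of 2419 kept unbound sites (5.62%, distal D0 peaks 2.97%). The octamer ATGCAAAT was at 105 kept unbound sites (3.40%, all D0 peaks 1.96%), compared with a control of 0.680%, and at 1.92% of kept SOX9-bound sites. These shares moved with the settings. With SOX9 peaks over 3600 RPKM only they were 3.63% for the GRHL word and 2.48% for the octamer, and in windows of 100 bp to each side 10.4% and 5.50%, beside 5.17% and 3.2% of all D0 peaks. Of 32851 RefSeq promoter sequences, which are longer at 250 bases before to 50 after the start, 2.09% held the GRHL word, 1.74% the octamer, 3.85% the TEAD word, 5.20% the AP1 word and 16.3% a SOX word.

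**Figure D5:**
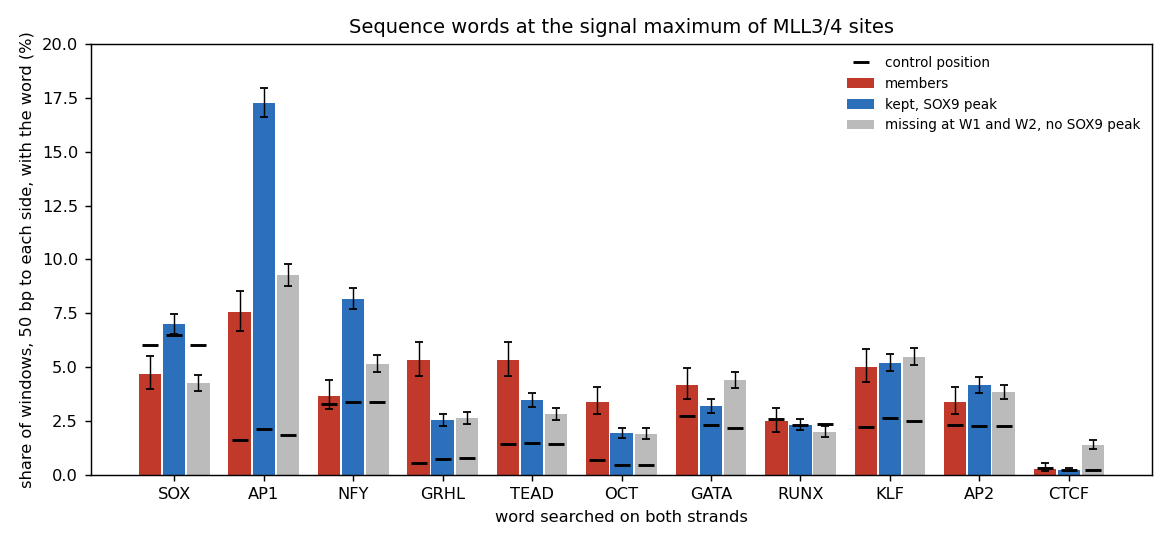
Share of windows, 50 bp to each side of the maximum, with a word on either strand (y axis, %) by factor family (x axis), with 95% Wilson intervals and black marks for windows 1 kb to either side. Kept unbound sites (red, members) have more GRHL (5.31%), TEAD (5.31%) and OCT (3.40%) words and fewer AP1 (7.54%) words than kept SOX9-bound sites (blue).

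The AP1, TEAD, GRHL and OCT words were also counted jointly. At least 1 of the AP1, TEAD, GRHL and OCT words was at 632 kept unbound sites (20.5%, all D0 peaks 19.7%). Away from promoters 514 of 2419 kept unbound sites (21.2%, all distal D0 peaks 22.6%) held at least 1 of these words, compared with 26.6% of distal kept SOX9-bound and 17.9% of distal lost unbound sites. Each pair of these words was found together at 2 to 6 of the 2419 distal kept unbound sites. No share over all distal D0 peaks is given for these pairs, so nothing is read from their counts. In the cultured MLL3/4 list without DOX, which held 38.1% of all distal D0 peaks, were 19 of 81 distal kept unbound sites with an octamer (23.5%, interval 15.6 to 33.8) and 41.6% of those without it (interval 39.6 to 43.6). With a GATA word the share was 24.3% (26 of 107) and without it 41.8%. With the GRHL word it was 54.4% (74 of 136, interval 46.0 to 62.5) and without it 40.2%, and with the AP1 word it was 51.3% (99 of 193) and without it 40.1%. With the TEAD word it was 48.5% and without it 40.6%, and with a SOX word 36.6% and without it 41.2%. These splits were made after the values were seen, share the same list and were not tested.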

How the data were processed

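CUT&RUN for SOX9, MLL3/4 and the MYC tag was measured in 32 of 41 samples, and 9 samples of other proteins were not analysed here. For read trimming the authors used Skewer, for alignment to mm10 Bowtie2 (2.2.9) and for duplicate removal Picard, with SAMtools (1.3.1) and deepTools (3.1.2) also in the submitters' processing notes, and called peaks with SEACR on replicates pooled by group. The deposited SOX9 and MYC-tag lists give the maximum as RPKM and the total as a signal summed over the peak. The deposited MLL3/4 lists of pooled groups hold total and maximum signal as whole-number coverage, while the study's methods describe RPKM. The scale could not be settled and depth per sample is unknown, so groups of sites were compared over time by rank within a list, and single maxima are printed without comparison between lists. The authors' single-replicate lists without DOX are in RPKM.

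Sites were joined by overlap of at least 1 bp, and annotated with GENCODE vM21 and the GRCm38.p6 genome in Python 3.11.15 with pandas 2.3.3 and numpy 2.4.6. Shares carry 95% Wilson intervals and differences Newcombe intervals, which cover counting error. The overlap and word functions were tested on simulated data. The rule for named sites took the 10 smallest sums of total-signal ranks at D0, W1 and W2, the 8 such over 10 kb from a start, the 5 highest D0 totals in all and in none of the cultured lists, 3 promoter sites per gene list, and up to 3 sites at the SOX9 border. The sites, word and gene lists were chosen with earlier results of these data known. Titles number 2 replicates in each group, although the description of each MLL3/4 sample from DOX-treated WT-SOX9 cells names replicate 2, and the spread of replicates cannot be seen in pooled lists.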

Additional observations from a re-analysis of the deposited data

How the results depend on the processing

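Under 15 alternatives, the recomputed differences between kept unbound and kept SOX9-bound sites (promoter, CpG island-like, cultured and word shares) (leaving out the GRHL and OCT words, which were chosen after their values were seen, and with the TEAD word, whose alternatives were added after the data were seen) reversed 0 times, and 79 of 81 kept an interval on the same side of 0. In the other 2 the interval came to include 0, namely the promoter shares with SOX9 peaks over 3600 RPKM only (-0.703 points) and with the upper 50% of each MLL3/4 list (-2.09 points). The shares themselves moved more. With SOX9 peaks over 3600 RPKM only, there were 9562 sites, with 24.6% at promoters, 8.34% CpG island-like, 52.8% in cultured MLL3/4 without DOX, 15.3% with WT-SOX9, 2.54% on MYC-tag peaks and 12.4% with an AP1 word. With the SOX9 lists of W1 and W2 only, the cultured shares were 46.7% and 12.3%, the MYC-tag share 2.39% and the AP1 share 10.1%. With the upper 50% of each MLL3/4 list, 875 sites were left, with 19.2% at promoters, 1.83% CpG island-like, 55.7% and 19.3% in the cultured lists, 4.11% on MYC-tag peaks and 6.06% with an AP1 word. Lists of equal size gave 44.4% in cultured MLL3/4 without DOX. The MYC-tag share was 0.965% with peaks within 500 bp merged and 0.981% without the run at Sfi1, an alternative added after the data were seen. Removing sites within 1 kb of SOX9 gave a promoter share of 20.3%, promoters of 2.5 kb gave 31.2%, and coding starts only gave 17.6%. Word windows of 100 bp to each side gave 10.1% for SOX, 12.5% for AP1 and 8.32% for TEAD, which was 4.31% with SOX9 peaks over 3600 RPKM only. Cultured lists of equal size gave 19.3% without DOX, and the list of replicate 1 alone, without replicate 2, gave 44.7%. The cause of these moves was not tested.

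No paired analysis was possible because all but 2 of the 18 lists pool their replicates, and those 2 are both of replicate 1. With 1 list per group the precision of a level between times is unknown, and absence from a list means only that no peak passed its threshold.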
